A study of Danio rerio with 28 samples.

Results

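In the Drop-Seq libraries of the adult zebrafish liver, 425 of 25842 called cells, or 1.64%, drew at least 10% of their transcripts from a single row of the count tables, the row named GPT. These GPT-high cells came from 20 of the 28 libraries. A called cell was a barcode whose number of UMIs (unique molecular identifiers, counted once for each captured transcript) exceeded the mean of its library. The share of UMIs from GPT chose the cells, so GPT levels are given as a description and without a test. Cells of this kind were proposed as neuron-like because gabbr1b, a subunit of the GABA-B receptor, is found in them, and the proposal was made with results of these data known.

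GPT is the symbol of glutamic-pyruvic transaminase (alanine aminotransferase), which moves an amino group between alanine and glutamate and is abundant in hepatocytes. In the gene name table the symbol belongs to 2 Ensembl genes, and the count tables do not separate them. Neurons release transmitters such as GABA and glutamate from synaptic vesicles and sense them through ion channels (the GABA-A, AMPA, kainate and NMDA receptors) and G-protein-coupled receptors (the GABA-B and metabotropic glutamate receptors). A neuronal transcriptome is usually recognised from RNA-binding proteins of the elavl family, vesicle fusion proteins such as snap25 and syt1, and cytoskeletal proteins such as stmn2 and the neurofilaments. A liver preparation can hold nerve endings, glia and cells of the adjoining gut and pancreas beside the hepatic cell types.

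The study followed biliary epithelial cells (BECs) after loss of hepatocytes. Of the 28 libraries, 6 held live nucleated cells of uninjured livers from adult males of genotype TU and are called all-cell libraries here. The other libraries came from adults that all carried Tg(Tp1:CreERT2), a ubb promoter loxP reporter that switches from EGFP to mCherry, and Tg(fabp10a:CFP-NTR). In these fish 4-hydroxytamoxifen given to larvae recombined cells with the Notch-responsive Tp1 element, which in the liver are BECs, and fabp10a drives the nitroreductase in hepatocytes only. Sorted mCherry+ cells gave 3 libraries each for the uninjured and mock conditions and for 5 times after ablation, from 0 to 7 days (dpa), and sorted GFP+ cells of uninjured fish gave 1. Ablation was by 5 mM metronidazole in 0.5% DMSO for 16 hours, and the fish were 6 to 18 months old. The number of fish behind a library is not given in the sources used here, so replicates may be technical and p-values measure the spread between these libraries only.

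Each library listed 5000 barcodes with 926798 to 7296066 UMIs in all, and the mean UMI number that defined a cell ran from 185 to 1459. It was lowest in the 3 mock libraries, at 198, 185 and 207 UMIs. Of 25777 different cell barcodes, 53 were called in more than 1 library, and a single GPT-high barcode was GPT-high in a pair of libraries. No GPT-high cell lay within 1 base of another called barcode of its library, against 0.415% of the remaining called cells, in a check of 423 GPT-high and 16152 remaining cells.

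GPT-high cells were concentrated in the uninjured all-cell and mock libraries. All-cell replicates 1 to 6 held 47, 0, 15, 104, 2 and 69 of them, which is 5.40%, 0%, 1.46%, 10.9%, 0.248% and 10.4% of called cells. The mean was 4.75% ± 5.00 (SD, n = 6), so libraries with the same label spanned from none to more than 10% of cells. In the library with the highest share, the exact 95% binomial (Clopper-Pearson) interval was 9.03% to 13.1%, and in replicate 2 the 0 of 1566 cells allows a share of up to 0.192% by the limit of 3 counts used for every 0 here, or 0.235% by the exact interval. Intervals and such limits cover counting error only.

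The 3 mock libraries held 54, 49 and 43 GPT-high cells, or 6.17%, 5.81% and 4.43% (mean 5.47% ± 0.920). Sorted mCherry+ cells of uninjured fish held 4, 0 and 4, or 0.284%, 0% and 0.327% (mean 0.204% ± 0.178), and these fish carried the same transgenes as the mock fish. After ablation 0 dpa libraries held 6, 3 and 7 cells, or 0.634%, 0.334% and 0.767%. At 1 dpa the libraries held 6, 2 and 3 cells, or 0.705%, 0.249% and 0.347%. None was found among 723, 671 and 717 cells at 2 dpa, which allows up to 0.415%, 0.447% and 0.418%. At 3 dpa 1 cell was found in replicate 3 (0.117%), and at 7 dpa 1, 3 and 2 cells (0.119%, 0.348% and 0.248%). The single GFP+ library held none in 1161 cells, which allows up to 0.258%. The 3 mock libraries stood above all 19 other sorted libraries.

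**Figure D1:**
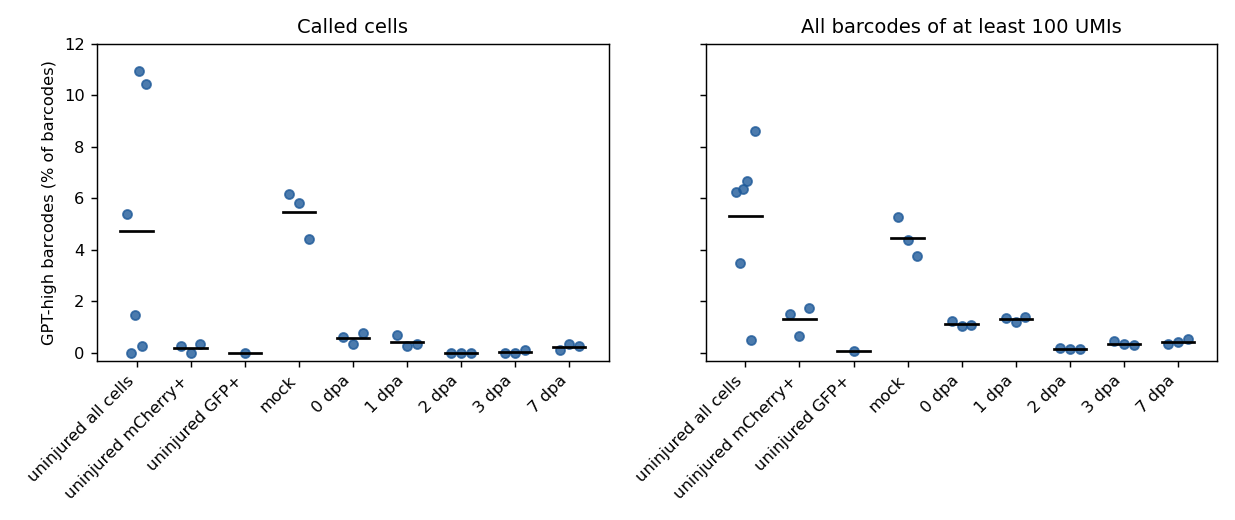
GPT-high barcodes as a percent of called cells (left) and of all barcodes with at least 100 UMIs (right) on a linear axis, with 1 point per library and a bar for the mean of each group. In the left panel mock libraries lie at 4.43% to 6.17%, all-cell libraries are spread from 0% to 10.9%, and the other groups stay under 1%. In the right panel uninjured mCherry+, 0 dpa and 1 dpa libraries reach 1.75%, 1.22% and 1.41%.

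Across the 7 sorted mCherry+ groups the share differed by more than the spread between libraries (F = 82.4, permutation test with 100000 resamples, p = 5e-05). Each of the 6 other groups lay below mock without overlap, by 4.89 to 5.47 percentage points. The exact two-sided permutation p was 0.1 in each case, which is the smallest that 3 against 3 libraries can give (0.117 adjusted over 7 comparisons). All-cell and uninjured mCherry+ libraries overlapped, with a difference of 4.55 points (exact permutation p = 0.19, adjusted 0.19).

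Mock libraries also had the lowest number of UMIs needed for a cell, so the share was counted again over all barcodes with at least 100 UMIs, an alternative chosen after seeing the data. There were then 2375 GPT-high barcodes in 28 of 28 libraries, 1950 of them below the cell call. The mean share was 5.32% ± 2.87 in all-cell libraries, 4.47% ± 0.774 in mock and 1.30% ± 0.575 in uninjured mCherry+ libraries. It was 1.12% at 0 dpa and 1.31% at 1 dpa, and 0.154%, 0.361% and 0.434% at the 3 later times. Mock stayed above each of the other sorted groups without overlap (exact permutation p = 0.1 each), with the uninjured mCherry+ group at -3.17 points from mock in place of -5.27. All-cell replicate 2, which had no GPT-high cell, had 171 GPT-high barcodes below its call. The 2 dpa libraries had 23 in all, so GPT-high barcodes were few there on either count. Fewer such cells and less GPT per cell cannot be told apart in a share with a fixed minimum.

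Within a GPT-high cell the row GPT could supply most of the transcriptome. Its share of UMIs had a median of 50.3% over the 425 cells, with quartiles of 24.2% and 72.0% and a range of 10.04% to 87.4%. Of the 425 cells 348 were at 20% or more and 214 at 50% or more. The threshold did not fall in a gap, because 73 called cells lay between 5% and 10%, the highest outside had 9.75% and the lowest inside 10.04%. In the summed UMIs of remaining called cells GPT made up between 0.00137% (2 dpa replicate 1) and 0.242% (all-cell replicate 4). At least 1 GPT UMI was found in 68.9% of remaining cells in all-cell replicate 6 and in 3.04% in 2 dpa replicate 1.

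**Figure D2:**
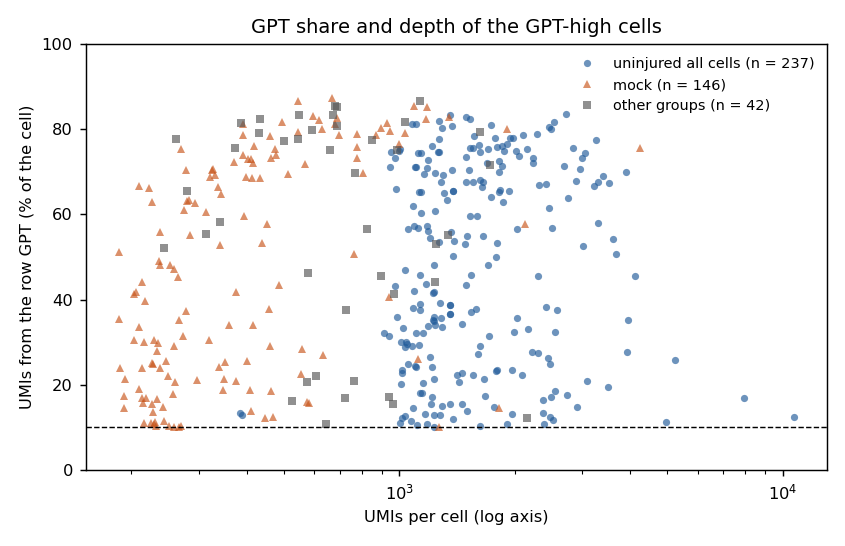
Percent of a cell's UMIs from the row GPT (linear axis) against the cell's UMI total (log axis) for the 425 GPT-high cells, by group; the dashed line marks the 10% minimum. Mock cells sit at lower UMI totals than all-cell ones, and in both groups the GPT share runs from 10% to over 80%.

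GPT-high cells were shallow. Their median was 1115 UMIs (range 186 to 10690) and 446 UMIs once GPT was left out, against 1716 UMIs in the remaining called cells. Over the 10 libraries with at least 5 of them the log2 ratio of the medians was -0.73 ± 0.60 (SD), lower in 9 of 10 libraries (two-sided sign-flip permutation test, p = 0.0039). In the 4 all-cell libraries alone it was -1.09, and in the 6 sorted libraries -0.49 (exact permutation p = 0.125 and 0.0625). All 4 all-cell libraries were lower, and 0.125 is the smallest p that 4 libraries can give. These totals include GPT, and the rule used them for the cell call and as the base of the GPT share. The depth comparison is therefore a description, and its p-values are no independent support. Genes per cell were counted after GPT was left out and cells were thinned to 200 UMIs. Too shallow for this were 95 GPT-high cells (32, 35 and 28 in mock 1 to 3) and 52 remaining cells. Medians over 8 libraries were 103.75 genes in GPT-high and 104.5 in remaining cells, with a log2 ratio of -0.08 ± 0.11 (exact permutation p = 0.094). The ratio was -0.013 in the 4 all-cell libraries. In the 4 sorted ones it was -0.146, lower in all 4 (exact permutation p = 0.125, the smallest possible).

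To learn which other genes set these cells apart, UMIs were summed per library over GPT-high and over remaining called cells and compared with edgeR's quasi-likelihood test, with library as a block and Benjamini-Hochberg adjustment over all 1233 genes that passed the filter on low counts. The 10 libraries with at least 5 GPT-high cells entered (all-cell replicates 1, 3, 4 and 6, mock 1 to 3, 0 dpa 1 and 3 and 1 dpa 1), with 400 of the 425 cells. The row GPT and the row named for the mitochondrial reference sequence were left out of the sums and of all levels below, which are UMIs scaled to the same total for every sum (CPM). UMI totals of a gene are those of these 10 libraries, and counts and shares of cells are over all 425. Of the 1233 genes 516 (41.8%) were called, 86 (6.97%) higher and 430 (34.9%) lower. A gene could pass the filter through its level in GPT-high sums alone. For genes at low levels in remaining cells the calls and p-values are therefore a description and no independent support.

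The falls depended on the scaling. With TMM factors for each sum the median of all tested genes was -0.93 on the log2 scale, with library size alone -0.53 (94 or 7.62% higher, 181 or 14.7% lower), and with 1 factor per class set on pooled sums 0.05. That last scaling, added after seeing the data, called 128 higher (10.4%) and 6 lower (0.487%). On simulated counts TMM moved unchanged genes by -0.78 and the pooled factors by 0.14. Of 133 genes called there with TMM, 38 were unchanged genes, and all 38 were called lower. With the pooled factors 3 of 90 called genes were unchanged, and 0 of these were called lower. All 86 rises were called under both scalings and 6 of the 430 falls were (nucks1b, ccl35.1, rwdd1, hspb1, atp1b1a and zgc:193726).

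The genes named for their rises have different known roles, given here mainly from mammalian relatives. Endocytosis (reps2), the membrane protein insertion complex of the endoplasmic reticulum (emc8), vesicle tethering at the plasma membrane (exoc4), ubiquitin binding (ubap2a), histone acetylation (brd1a), calcium entry (cacna1ea), G-protein signalling (rgs3a, gabbr1b), organic anion export (abcc5) and phosphoserine binding (ywhabl) were all among the 20 largest rises. The 20 were taken from called genes with a UMI in at least 3% of GPT-high cells. They also had to move the same way in at least 90% of the libraries, so their shared direction was part of the choice. These rules left out called genes such as runx3, which rose more than the smallest of the 20. The 20 genes together supplied 17.5% of the UMIs of GPT-high cells against 0.0894% in remaining cells. Their log2 fold changes ran from 1.43 (stau2) upwards, and 19 of them were above 3. Of these genes and GPT 18 of 21 names were matched to a RefSeq annotation (assembly GRCz12tu), where 0 pairs were neighbours and the names lay on 15 chromosomes.

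For gabbr1b the GPT-high cells had 2667, 3889, 924 and 1734 CPM in all-cell replicates 1, 3, 4 and 6, 6530, 9395 and 4333 in mock 1 to 3, 8197 and 6667 in 0 dpa 1 and 3, and 6522 in 1 dpa 1. Remaining cells had 3.36 to 35.7 CPM. All sorted libraries lay above all all-cell libraries in the level of this receptor subunit, and no library of remaining cells came near (log2 fold 8.41 ± 0.45 SE, edgeR adjusted p = 8.07e-75). In a comparison added after seeing the data, all-cell minus mock was at -1.11 ± 0.56 on the log2 scale and not called (edgeR adjusted p = 0.12). gabbr1b was detected in 164 of the 425 cells against 0.932% of remaining cells, and after thinning to 200 UMIs in 28.2% against 0.114%. The gene was known to mark these cells before the test, and it could pass the filter through GPT-high cells alone. Its p-value against remaining cells is therefore no independent support.

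The exocyst subunit exoc4 was high in all 10 libraries. Its levels were 10695, 13298, 11096 and 19436 CPM in the all-cell libraries, 26605, 27524 and 28596 in mock, 15027 and 23333 at 0 dpa and 8894 at 1 dpa, against 20.6 to 199.7 CPM in remaining cells (log2 fold 7.73 ± 0.42, adjusted p = 2.02e-71). It was found in 393 of 425 GPT-high cells. The endoplasmic reticulum gene emc8 reached the highest level of the named genes, 136871 CPM in all-cell replicate 3, and ran down to 11562 CPM in the 1 dpa library (log2 fold 8.54 ± 0.43). ubap2a ran from 5929 to 58724 CPM, with all 4 all-cell libraries above all 6 sorted ones (log2 fold 8.01 ± 0.43). reps2 did the same, with 9116 to 20449 CPM in all-cell libraries and 1482 to 2732 CPM in sorted ones (log2 fold 8.96 ± 0.49). thsd7bb, which codes for a thrombospondin repeat protein, rose by 7.28 ± 0.43 on the log2 scale. It had 1198 to 4506 CPM in all-cell and 11851 to 15969 CPM in mock libraries. That difference was not called in a comparison added after seeing the data (edgeR adjusted p = 0.058). With 5 of 3373 UMIs the 1 dpa library lay within the all-cell range.

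**Figure D3:**
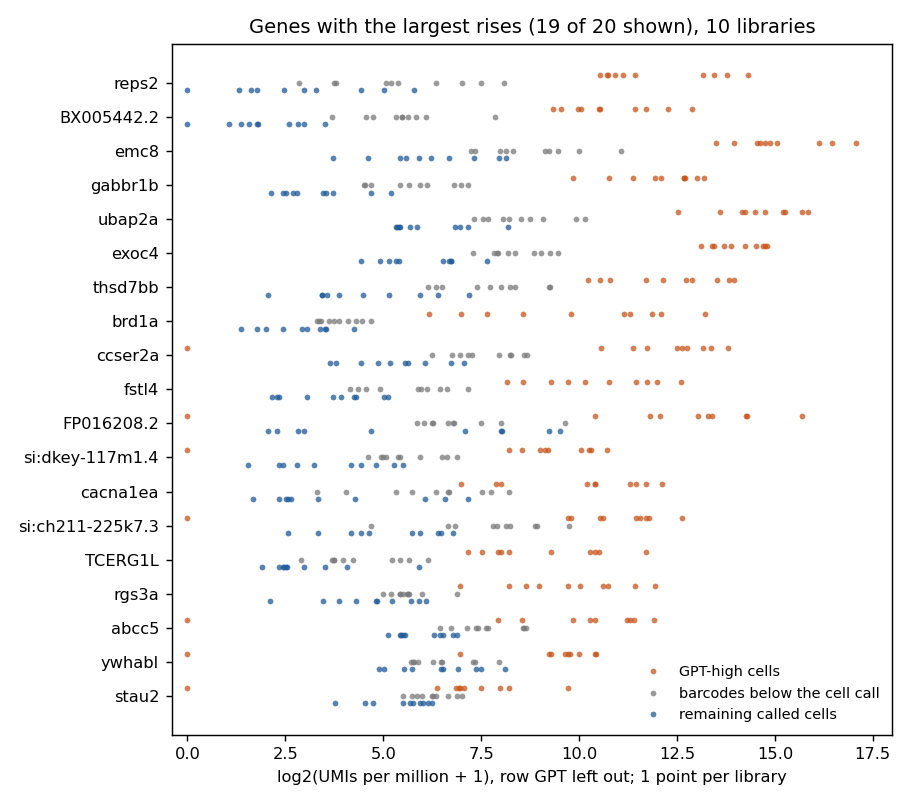
Level of 19 of the 20 named genes with the largest rises on a log2(CPM + 1) axis. Each point is 1 library (n = 10) for GPT-high cells, all barcodes below the cell call or remaining called cells. The 20 were also chosen for the same direction in at least 90% of libraries. For 11 of these 19 genes the lowest GPT-high library lies above the highest library of remaining cells.

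The remaining leading genes showed the same direction with less cover. ccser2a, which codes for a coiled-coil protein, rose by 6.71 ± 0.43 on the log2 scale and was at 0 in 1 library of GPT-high cells. fstl4 of the follistatin family rose by 6.60 ± 0.45, and the R-type calcium channel gene cacna1ea by 5.83 ± 0.45. TCERG1L, related to a transcription elongation regulator, rose by 5.70 ± 0.48. Clone-named rows BX005442.2, FP016208.2, si:dkey-117m1.4 and si:ch211-225k7.3 rose by 8.62, 6.57, 5.84 and 5.81, and no role is given for them. In FP016208.2 a single cell supplied 34.8% of the UMIs. abcc5 rose by 4.14 ± 0.44, with 23.0% of its UMIs from a single cell and a level of 0 in its lowest library of GPT-high cells. ywhabl rose by 3.04 ± 0.45, and in sorted libraries alone by 1.32 ± 0.58, where it was not called (edgeR adjusted p = 0.087). stau2, an RNA-binding protein of dendritic RNA transport, had the smallest rise of the 20 genes (1.43 ± 0.49, edgeR adjusted p = 0.013). It rested on 29 UMIs, and after thinning was found in 0.647% of GPT-high against 0.796% of remaining cells.

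By the share of cells with a UMI, the genes most like GPT were exoc4, ubap2a, emc8, reps2 and thsd7bb. They were found in 92.5%, 89.4%, 83.1%, 63.3% and 61.6% of GPT-high cells against 4.36%, 5.91%, 4.18%, 1.05% and 1.72% of remaining cells, whose median depth was higher. These shares are pooled over libraries, and GPT-high and remaining cells come from them in different proportions. Within the 10 libraries the share with ubap2a was 66.7% to 100% in GPT-high and 1.76% to 17.3% in remaining cells. With every cell thinned to 200 UMIs, which left out 116 GPT-high and 52 remaining cells, exoc4 was in 77.7% against 0.666%, ubap2a in 87.1% against 0.781% and emc8 in 78.3% against 0.576%. The shares in remaining cells, under 1% after thinning, are the level that GPT-high cells are read against; the part of free RNA in them was not tested.

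Few falls held under both scalings, and each rested on few UMIs. The chemokine gene ccl35.1 had 8 UMIs in GPT-high cells. Its level was 0 in all 4 all-cell libraries and in both 0 dpa ones, 121, 397 and 124 CPM in mock and 889 at 1 dpa. A count of 0 allows 30.5 to 376 CPM in these all-cell libraries and 2500 to 4098 CPM at 0 dpa. These limits overlap the levels of remaining cells. Remaining cells had 26.1 to 90.1 CPM in all-cell and 1389 to 2769 CPM in sorted libraries, and within libraries the log2 fold was -3.55 ± 0.57 by TMM (edgeR adjusted p = 1.53e-08) and -2.49 with the pooled factors (adjusted p = 0.00011). nucks1b, which codes for a chromatin-associated nuclear protein, had 1 UMI and a ratio of 0.0477 (0.0012 to 0.266), with 44.1 to 129 CPM in remaining cells. rwdd1 had 2 UMIs and a ratio of 0.0694 (0.0084 to 0.251). The interferon-related regulator ifrd1 and the mitochondrial import gene tomm5 had 2 UMIs each and were not called with the pooled factors (adjusted p = 0.059 and 0.16).

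The 20 genes were chosen in called cells, and were then looked at in barcodes below the cell call, in comparisons added after seeing the data. Among barcodes of at least 100 UMIs below the cell call, GPT-high barcodes were compared with the rest in 27 libraries and 626 genes, of which 346 (55.3%) were called, 25 (3.99%) higher and 321 (51.3%) lower. Of the 20 genes 14 were tested there and 14 were higher, with exoc4 at 5.14 ± 0.21, emc8 at 5.41 ± 0.26 and gabbr1b at 5.47 ± 0.26 on the log2 scale. In 17 of the 18 libraries that had been left out for too few GPT-high cells, 338 genes were tested, 31 (9.17%) were lower and 5 (1.48%) higher, which were emc8 (6.11 ± 0.29), exoc4 (6.00 ± 0.22), ubap2a (5.62 ± 0.25), thsd7bb (5.54 ± 0.27) and FP016208.2 (5.11 ± 0.46). These are all 5 of the 20 genes that could be tested there. A gene could pass the filter in these comparisons through its level in GPT-high barcodes alone. The counts of 14 and 5 are therefore a description and no independent support. Fits on parts of the 10 libraries use the same cells that chose the 20 genes and are given as a description. In all-cell libraries alone 19 of the 20 genes were called higher, where 493 of 5308 genes (9.29%) were higher and 543 (10.2%) lower. In sorted libraries alone 17 of 19 were, where 37 of 1639 genes (2.26%) were.

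GPT-high cells differed among themselves in these genes. At least 1 of the 20 genes was found in 424 of 425 cells and at least 5 in 355 (83.5%), with a median of 8 and at most 18. The genes were chosen largely in these same cells, so these counts are a description only. The 20 genes made up a median of 4.73% of the UMIs other than GPT in 77 cells with a GPT share of 10% to 20%, 8.38% in 134 cells with 20% to 50%, and 18.1% in 214 cells with 50% or more. In the 73 cells just below the threshold it was 2.23%, and exoc4 was found in 79.5% of those. The share of cells with exoc4 was 84.4%, 92.5% and 95.3% in the bands of rising GPT share, and that of gabbr1b 29.9%, 22.4% and 51.9%. The most abundant gene after GPT was emc8 in 102 cells (24.0%), ubap2a in 41, apoc1 in 33, hsp90aa1.2 in 30, FP016208.2 in 22, exoc4 in 13 and eps8b in 12. No gene of the set was found in every GPT-high cell. The rise in all-cell libraries minus that in sorted ones, tested as an interaction added after seeing the data, was called for 21 of 1233 genes (1.7%), 18 higher (1.46%) and 3 lower (0.243%), and among the 20 for brd1a, rgs3a and ywhabl.

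Receptors for GABA and glutamate were detected in GPT-high cells above their level in remaining cells. Of 65 such genes in the files 52 had a UMI in them, and 1, gabbr1b, passed the filter and was tested. The summed level of the family was 5919 to 25348 CPM against 198 to 924 CPM in remaining cells and 546 to 2049 CPM in barcodes below the call, higher in 10 of 10 libraries. After thinning, 57.9% of GPT-high cells had a UMI of the family against 4.87% of remaining cells. Beside gabbr1b, members seen in many GPT-high cells were the metabotropic glutamate receptor grm4 (109 cells, 25.6% against 1.11%), the GABA-A subunit gabra5 (99 cells, 23.3% against 0.909%), grm8b (62 cells, 14.6% against 1.1%) and the NMDA subunit grin2da (47 cells, 11.1% against 0.866%). These shares are unthinned and pooled over libraries. Medians of the 10 libraries for grm4, gabra5 and grin2da were 9.47%, 10.2% and 8.05% in GPT-high cells. In remaining cells they were 1.17%, 0.344% and 0.431%, and the highest libraries had 5.24%, 9.80% and 5.57%. Each of these genes was found in no GPT-high cell of at least 1 library. The partner subunit that GABA-B receptors need at the membrane, gabbr2, had 23 UMIs in 19 cells (4.47% against 1.53%). The obligate NMDA subunits grin1a and grin1b had 2 and 1 UMIs. The AMPA subunits gria2a and gria2b were at 0. The summed level of gabbr1b, gabra5 and grin2da, from which the study proposed that a cluster may be neuronal, was 1959 to 10929 CPM in GPT-high and 6.38 to 49.4 CPM in remaining cells.

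Genes that define neurons in general had few UMIs. None of 26 pan-neuronal genes passed the filter, and 10 were at 0 in GPT-high cells, among them elavl3, stmn2a, stmn2b, gap43, nefla and eno2. The 16 others had 149 UMIs, of which 100 (67.1%) were rbfox3a, found in 45 cells (10.6%). snap25a and snap25b had 3 and 6 UMIs, syt1a 6, elavl4 10 and map1b 1. The summed level of the list was 484 to 1631 CPM in the 7 all-cell and mock libraries, above the 63.9 to 214 CPM of remaining cells there. It was 0 in the 0 and 1 dpa libraries, where a count of 0 allows 889 to 4098 CPM. A pan-neuronal UMI was found in 16.7% of GPT-high against 13.9% of remaining cells, and in 9.06% against 1.85% after thinning.

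More specific neural lists were as sparse. Of 10 genes of transmitter synthesis and release 6 were at 0 and the list had 9 UMIs, with gad1b, slc17a6b, slc17a7a and slc32a1 at 0. Of 11 enteric neuron genes 6 were at 0, including phox2bb, ret and vipb, and 45 of 65 UMIs were nos1 in 5 cells. Of 12 glia and Schwann cell genes 6 were at 0, including sox10, mpz and s100b, and 66 of 79 UMIs were slc1a2b in 6 cells. No gene of these lists passed the filter. Summed levels of the transmitter, enteric neuron and glia lists were below those of remaining cells in 7, 4 and 8 of 10 libraries. After thinning, 0%, 0.971% and 1.29% of GPT-high cells had a UMI of these 3 lists against 0.217%, 0.209% and 0.741% of remaining cells.

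**Figure D4:**
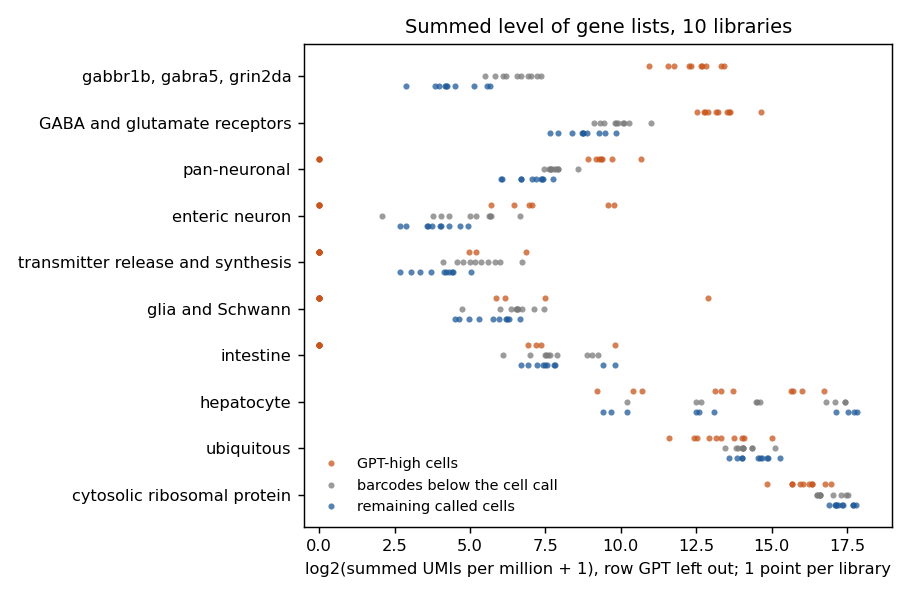
Summed level of 10 gene lists on a log2(CPM + 1) axis, with 1 point per library (n = 10) for GPT-high cells, all barcodes below the cell call and remaining called cells. GABA and glutamate receptors stand apart in GPT-high cells, pan-neuronal, enteric neuron, transmitter and glia lists reach 0 in some libraries, and ribosomal protein genes lie lowest in GPT-high cells.

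Of markers of other tissues, the intestinal, germ line and muscle lists had few UMIs and the pancreatic lists had more. Of 9 intestinal genes 5 were at 0 and the list had 25 UMIs, with 13 from fabp2, and its summed level was below that of remaining cells in 9 of 10 libraries. A UMI of the list was found in 5.18% of GPT-high and 20.1% of remaining cells (1.94% and 2.47% after thinning). The 10 acinar genes had 194 UMIs and 2 were tested, with no call by TMM and both higher (prss59.2 at 2.1, ctrb1 at 1.96) with the pooled factors. Their summed level in GPT-high cells was below that of remaining cells in 3 of 10 libraries (median 622 against 247 CPM). It was below that of barcodes under the call (median 1751 CPM) in 9 of 10. The islet list had 187 UMIs, with a summed level below that of remaining cells in 10 of 10 libraries (median 619 against 1635 CPM). Of 3 islet genes tested ins (-1.64) and sst2 (-1.39) were lower by TMM and neither with the pooled factors. Male germ cell (12 genes), oocyte (8) and muscle (9) lists had 13, 2 and 9 UMIs.

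Markers of liver cell types were detected with no gene called higher among hepatocyte, BEC and macrophage lists. The 12 hepatocyte genes were all tested and 0 were higher, 2 lower by TMM and 0 lower with the pooled factors, against 6.97% higher and 34.9% lower over all genes. The summed level followed the library: 51186 to 110007 CPM in all-cell, 8949 to 13365 CPM in mock and 593 to 1667 CPM in 0 and 1 dpa libraries. It lay below that of the barcodes under the call in 10 of 10 libraries and below that of remaining cells in 5. A hepatocyte UMI was found in 92.2% of GPT-high against 57.7% of remaining cells after thinning, pooled over libraries, and the medians of the unthinned shares within 10 libraries were 85.0% and 73.7%. Of the BEC genes (anxa4, krt18a.1, epcam, tm4sf4 and alcama tested) 4 of 5 were lower by TMM and 0 with the pooled factors. Endothelial and stellate or fibroblast lists had 66 and 41 UMIs with no gene tested. Both macrophage genes tested (grn1, c1qc) were lower by TMM and neither with the pooled factors.

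**Figure D5:**
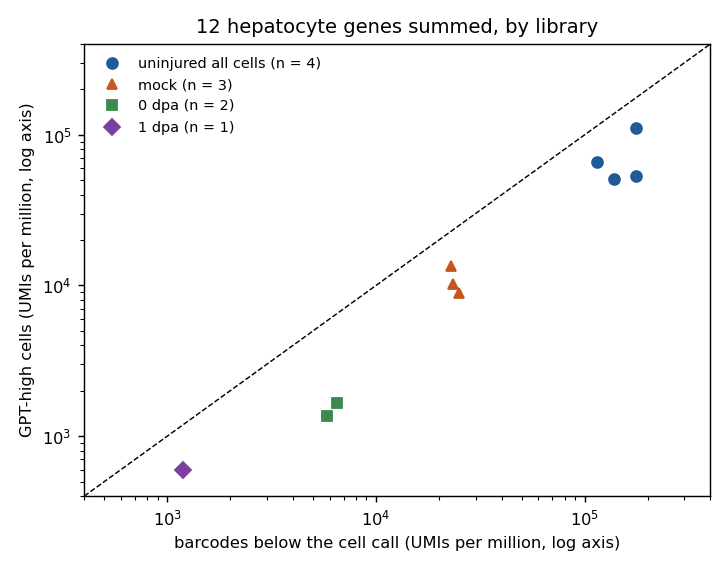
Summed level of 12 hepatocyte genes in GPT-high cells against that in all barcodes below the cell call, with 1 point per library and both axes in CPM on a log scale; the dashed line marks equal levels. All 10 libraries lie under the line, with 0 and 1 dpa lowest, mock between and all-cell libraries highest on both axes.

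Blood lists showed 1 call. Of 2 lymphocyte genes tested, runx3, a transcription factor of T and natural killer cells, was higher by 2.35 ± 0.51 (adjusted p = 8.86e-05, 35 UMIs in 29 cells), and the chemokine gene ccl38.6 was not called. lck and zap70, of T cell receptor signalling, and nkl.3 had 0 UMIs and nkl.4 had 2. The erythrocyte gene hbba1 was at 0.44 (adjusted p = 0.49). The thrombocyte list gene fn1b was at -0.82 (edgeR adjusted p = 0.16) and neutrophil genes had 13 UMIs.

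Genes used in most cells had lower levels in GPT-high cells, with calls that depended on the scaling. Cytosolic ribosomal protein genes made up 5.63% of UMIs other than GPT (median of 10 libraries) against 11.9% in remaining cells, lower in 10 of 10 libraries. Of 78 tested 77 were lower by TMM, 0 with the pooled factors, and the median log2 difference was -1.47 and -0.37. Of 15 genes used in most cells, 13 were lower by TMM and 0 with the pooled factors, with a median of -1.36 and -0.31 beside -0.93 and 0.05 over all tested genes. eef1a1l1, which codes for a translation elongation factor, was at -1.60 (edgeR adjusted p = 0.00013) and -0.45 (adjusted p = 0.38). Of 10 mitochondrially encoded genes tested 6 were lower by TMM and 0 with the pooled factors. The row named for the mitochondrial reference sequence held 23.4% of UMIs in GPT-high and 23.2% in remaining cells (medians of 10 libraries, as a share of UMIs other than GPT). These medians hide a split, with GPT-high cells lower in 4 of 10 libraries. All-cell replicates 1, 4 and 6 had 12.6%, 11.7% and 8.64% against 23.6%, 21.3% and 24.6% in remaining cells. The 1 dpa library had 19.8% against 14.8%.

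Enzymes related to GPT were not raised with it. Of 10 aminotransferase and glutamate dehydrogenase genes in the files 4 were tested, none was higher, 3 were lower by TMM and 0 with the pooled factors. gpt2, which codes for the mitochondrial enzyme in mammals, and gpt2l had 2 and 13 UMIs in GPT-high cells. tat, which degrades tyrosine in hepatocytes, was at -1.70 by TMM and -0.65 with the pooled factors.

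The measurements set these cells apart by GPT and by a set of genes of mixed roles, with GABA and glutamate receptors detected. Of the neuronal lists, the pan-neuronal one was above remaining cells in 7 of 10 libraries, mostly through rbfox3a. The enteric neuron list was below remaining cells in 4 of 10 (median 68.4 against 13.8 CPM), with most of its UMIs from nos1. Defining genes such as elavl3, stmn2a and gap43 were at 0, as were phox2bb, sox10, gad1b and slc17a6b. Where genes of a tissue or cell type list were tested, no list had more than 1 called higher by TMM, and with the pooled factors the acinar list had 2. The pan-neuronal, enteric neuron, transmitter, glia, intestinal and endothelial lists, among others, had no gene tested. The erythrocyte and thrombocyte lists had 1 each. More than 1 call was therefore not possible in these lists. The cells are therefore named here by their GPT share and not as neurons.

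Conditions were compared within GPT-high cells where the numbers allowed. All-cell and mock libraries, a comparison added after seeing the data, differed in 62 of 110 genes (56.4%), of which 38 (34.5%) were higher and 24 (21.8%) lower in all-cell libraries (31 and 31 with library size). The T-type calcium channel gene cacna1g had 2036 to 8284 CPM in 4 all-cell libraries and 0 to 132 CPM in mock (2 UMIs in all, ratio 71.9 with a 95% counting interval of 19.9 to 595). The glycosyltransferase gene glt8d1 had 2667 to 6741 CPM against 121 to 248 CPM (log2 fold 5.02 ± 0.66, edgeR adjusted p = 0.00072). The transcriptional repressor gene mnta had 3638 to 16790 CPM against 242 to 867 CPM (4.85 ± 0.98, adjusted p = 0.0018). In remaining cells of the same libraries the 3 genes stayed at or below 85.6 CPM. Of the falls brd1a also had low levels in remaining cells (72 to 376 CPM against 2250 to 4354 CPM, fell by 3.65 ± 0.50, adjusted p = 0.00072; 3.03 to 18.2 CPM in remaining cells).

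Other differences were seen in remaining cells as well. The insulin gene ins had 0 to 459 CPM in all-cell and 1935 to 4896 CPM in mock GPT-high cells, and remaining cells of the same libraries had 4.82 to 1606 and 5881 to 17722 CPM. CABZ01080568.1 had 89.4 to 376 against 1588 to 2781 CPM, and remaining cells 189 to 386 against 4860 to 5314 CPM. The chaperone gene hsp90aa1.2 (1681 to 11165 against 36890 to 47285 CPM) and the transferrin gene tfa (6848 to 15685 against 1486 to 1853 CPM) were called in GPT-high cells (edgeR adjusted p = 0.0022 and 0.0013) and differed in the same direction in remaining cells. The part of free RNA in these values was not tested. The all-cell fish were males and the sex of the sorted fish is not given for each library. Transgenes, sort, treatment and possibly strain and sex differ together between all-cell and mock libraries and cannot be told apart.

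At 0 dpa, 2 libraries with 6 and 7 GPT-high cells were compared with mock, and 0 of 155 genes (0.0%) were called higher or lower by edgeR, with 22 at an unadjusted p under 0.05 and 1 higher and 1 lower by DESeq2. On simulated counts for this comparison, 2 of 20 changes of 4 on the log2 scale were recovered. At the spread set there, most changes of that size would have been missed. At 1 dpa a single library with 6 cells, assumed to vary like the others since it has no spread of its own, gave 7 genes called (4.52%), 3 higher (1.94%) and 4 lower (2.58%). fabp11a, which codes for a fatty acid binding protein, had 46843 CPM there against 0 to 121 CPM in mock, and 9576 CPM in remaining cells of that library. The granulin gene grn1 had 9191 CPM against 242 to 265 CPM, and 7066 CPM in its remaining cells. The ferritin gene fth1a had 5336 CPM against 242 to 397 CPM, and 2366 CPM in its remaining cells. vtg1, a yolk protein precursor, eps8b, an actin regulator, and apoc1 had no UMI at 1 dpa, which is at least 11.1-fold, 19.7-fold and 3.10-fold lower than mock against a limit of 3 UMIs over the library. Without mock replicate 2 none of these 7 calls remained, and without mock replicates 1 or 3 there were 7 and 1 higher and 0 lower. No group from 2 to 7 dpa had a library with 5 GPT-high cells.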

How the data were processed

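Drop-Seq was run on 28 libraries. The authors aligned reads to GRCz11 with STAR 2.5.3 (FastQC 0.11.2 is also named) and deposited raw UMI counts per gene for 5000 barcodes per library, cells and background together, with 926798 to 7296066 UMIs per library. Called cells, GPT-high cells and marker lists (label, receptor, neural, liver, blood, pancreas, gut, germ line, muscle, ubiquitous, mitochondrial, ribosomal and aminotransferase genes; malat1 was not analysed here) were chosen with earlier results of these data known. Some genes are counted in totals and not reported here by name. No background was subtracted and no doublets were removed; leaving out the top 5% of cells by UMIs was an alternative. Sums per library and class were tested with edgeR 4.0.16 (R 4.3.3, filterByExpr, TMM, quasi-likelihood), with limma 3.58.1 and DESeq2 1.42.0 installed and DESeq2 as an alternative; shares used Python 3.11.15 and scipy 1.17.1. Groups came from the labels. Named genes were the 20 largest rises and 5 largest falls with adjusted p under 0.05, a UMI in at least 3% of the cells of the higher class and the same direction in at least 90% of libraries, the 5 most like GPT by share of cells, list members, and up to 3 rises and falls per condition. The fit was tested on simulated data with 2165 genes tested for GPT-high against remaining cells. Of changes of 4, 2 and 1 on the log2 scale 98.2%, 42.2% and 18.2% were recovered. The same run called 38 unchanged genes, all lower, among 133 calls. Its spread between libraries was set wider than the fitted one (common dispersion 0.231). Other alternatives were GPT minimums of 5% and 20%, at least 300 UMIs, at least 10 cells, no filter, no block, library subsets and each library left out.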

Additional observations from a re-analysis of the deposited data

Results flagged for a closer look

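The rise of 3 of the 20 leading genes in GPT-high over remaining cells differed between the 4 all-cell and the 6 sorted libraries, by a test of that difference in edgeR (an interaction term, added after seeing the data), where 21 of 1233 genes (1.7%) were called. For brd1a the difference on the log2 scale, all-cell minus sorted, was -3.03 ± 0.79 (adjusted p = 0.0095), with separate rises of 4.29 and 7.93. For rgs3a it was 3.4 ± 0.78 (adjusted p = 0.0017), with rises of 6.18 and 3.52. For ywhabl it was 3.14 ± 0.76 (adjusted p = 0.0036), with rises of 3.79 and 1.32. The other 17 of the 20 genes were not called, which does not show that their rises were equal. In ywhabl the remaining cells of sorted libraries had higher levels (87.5 to 275 CPM) than those of all-cell libraries (28.5 to 52.3 CPM), and GPT-high cells had 0 to 1366 and 619 to 1376 CPM. All-cell and sorted libraries differ in transgenes, sort, treatment (mock or ablation) and possibly strain and sex at once, and these cannot be told apart.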

How the results depend on the processing

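The order of shares, with mock above every other sorted group, held without overlap under each alternative run. The mean mock share was 6.46% with a GPT minimum of 5%, 4.31% with 20%, 4.14% for cells of at least 300 UMIs and 4.47% for barcodes of at least 100 UMIs. The last also moved uninjured mCherry+ to 1.30%, 0 and 1 dpa to 1.12% and 1.31%, and the 3 later times to 0.154%, 0.361% and 0.434%. Genes higher in GPT-high cells numbered 599 with no filter, 131 with at least 10 cells a library, 493 in all-cell and 37 in sorted libraries, 25 below the cell call and 5 in the libraries left out. Leaving out each library gave 48 to 97. Genes lower numbered 181 with library size, 6 with pooled factors, 8116 with no filter, 692 with at least 10 cells, 107 with no replicate block (67 higher), 270 in sorted and 31 in left-out libraries, and 242 to 414 without each library. The named rises kept direction and call in 445 of 455 alternative values and 18 of 20 genes in all; stau2 reversed to -0.98 with no filter. The named falls kept theirs in 101 of 106. UMIs per cell were at -1.09 and -0.49 in all-cell and sorted libraries (no longer past the threshold, which 4 all-cell libraries could not pass whatever their values). Genes per cell were at -0.089 when thinned to 100 UMIs (exact permutation p = 0.039, past it). For 0 dpa against mock, 1 gene was higher with library size and 1 with DESeq2, 1 lower with DESeq2 and 17 with no filter, and 0 to 1 higher without each library. For 1 dpa, 8 were higher with library size and 7 with no filter, 10 lower with DESeq2 and 15 with no filter, and 0 to 7 higher and 0 to 7 lower without each library. For all-cell against mock it was 28 to 59 higher and 13 to 44 lower without each library. The cause of these shifts was not tested. With a GPT minimum of 20% no 1 dpa library kept 5 cells and that fit was not run.

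Pairing of libraries by replicate number was not seen, which does not exclude it. Deviations of same-numbered libraries correlated between -0.36 and 0.33 (median -0.01, 57 pairs) and of others between -0.33 and 0.30 (median 0.01, 114 pairs). With the replicate block 0 and 7 genes were called higher and lower at 0 dpa and 5 and 8 at 1 dpa. The share test with that block gave F = 75.9 (permutation p = 0.00036) over 20 libraries, without the 7 dpa library labelled replicate 31.

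Depth limits these results. A GPT-high sum held 732 to 98503 UMIs other than GPT, so a count of 0 allows 30.5 to 4098 CPM and most neuronal genes lie under that in single libraries. Changes of 1 on the log2 scale were mostly not recovered on simulated counts. Falls rest on the scaling chosen. The row GPT covers 2 genes of the same symbol.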

Other observations

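Among barcodes of at least 100 UMIs below the cell call, the genes most like GPT were found in a larger share of those that were GPT-high. By number, more of the barcodes with these genes were not GPT-high (for exoc4 2179 against 1192). exoc4 was in 61.1% of 1950 GPT-high barcodes and 2.61% of the 83629 others, emc8 in 71.7% and 2.62%, and ubap2a in 72.1% and 3.19%. The row GPT itself made up 0.0317% of all UMIs in the GFP+ library and 2.67% in all-cell replicate 4.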
